A study of Mus musculus with 6 samples.

Results

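The 34 genes described here are genes of meiotic recombination and synapsis, together with *Tex14*, which is required for bridges between germ cells. They were taken by gene name from a table of 31751 genes, and their CpG sites were those that the table assigns to them as the closest transcription start site (TSS). The DNA methylation of these genes was measured in GS cells, cultured spermatogonia that include spermatogonial stem cells. Space GS cells had been cryopreserved for 6 months in the International Space Station (ISS), and Ground GS cells for 6 months on Earth. Each group had 3 samples, which were collected 14 days after thawing, with 2 passages in culture. All 6 samples carried the genotype DBA/Tg14(act-EGFP-OsbY01), an EGFP transgene driven by an actin promoter, from a C57BL6 line that was bred into the DBA/2 background. The cells were cultured on mouse embryonic fibroblasts, and the labels do not say whether the replicates came from separate cultures, so the p-values measure only the spread between these samples. The comparison asks whether storage in space was accompanied by a change in DNA methylation at these genes.

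Meiosis pairs homologous chromosomes and exchanges DNA between them. SPO11 cuts the DNA, DMC1 carries the broken ends into the homologous chromosome, and the synaptonemal complex zips both chromosomes together while MSH4 and MSH5 stabilize the sites that become crossovers. Spermatogonia precede meiosis, and most of these genes are activated only when the cells enter it. Many promoters of germline genes are rich in CpG, free of DNA methylation in germ cells, and methylated in somatic cells. RRBS, or reduced representation bisulfite sequencing, covers the CpG-rich part of the genome after bisulfite treatment. A read of a CpG site then counts as methylated or unmethylated, and the share of methylated reads, in percent, is the methylation level. It measures neither mRNA nor entry into meiosis.

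The promoters of 4 genes are shown here, because their measured CpG sites can be placed in the RefSeq sequence and because they come from 4 different roles in meiosis. Each window holds 250 bases before and 50 bases after the start of transcription in GRCm38.p6, on the strand of the gene, and capitals mark the CpG sites measured in all 6 samples. *Sycp1* is at chr3:102936051-102936350 (minus strand), *Mei4* at chr9:81863420-81863719 (plus strand), *Psmc3ip* at chr11:101095386-101095685 (minus strand), and *Trip13* at chr13:73937718-73938017 (minus strand).
Sycp1: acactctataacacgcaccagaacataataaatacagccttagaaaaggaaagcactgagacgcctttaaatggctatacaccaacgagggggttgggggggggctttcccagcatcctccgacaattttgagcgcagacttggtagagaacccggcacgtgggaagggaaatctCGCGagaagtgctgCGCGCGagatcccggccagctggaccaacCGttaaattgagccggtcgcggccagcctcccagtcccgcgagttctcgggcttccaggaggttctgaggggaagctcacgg
Mei4: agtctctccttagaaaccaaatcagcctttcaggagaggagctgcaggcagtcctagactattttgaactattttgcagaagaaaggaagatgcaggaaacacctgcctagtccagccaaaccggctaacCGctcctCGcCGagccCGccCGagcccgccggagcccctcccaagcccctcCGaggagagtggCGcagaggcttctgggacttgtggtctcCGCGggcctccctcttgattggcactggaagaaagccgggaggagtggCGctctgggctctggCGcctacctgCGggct
Psmc3ip: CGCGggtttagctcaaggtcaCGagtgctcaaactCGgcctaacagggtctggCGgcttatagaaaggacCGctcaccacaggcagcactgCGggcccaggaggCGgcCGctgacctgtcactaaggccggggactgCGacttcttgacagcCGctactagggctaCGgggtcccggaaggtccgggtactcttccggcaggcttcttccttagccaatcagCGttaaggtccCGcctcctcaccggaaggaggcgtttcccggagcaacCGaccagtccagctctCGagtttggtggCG
Trip13: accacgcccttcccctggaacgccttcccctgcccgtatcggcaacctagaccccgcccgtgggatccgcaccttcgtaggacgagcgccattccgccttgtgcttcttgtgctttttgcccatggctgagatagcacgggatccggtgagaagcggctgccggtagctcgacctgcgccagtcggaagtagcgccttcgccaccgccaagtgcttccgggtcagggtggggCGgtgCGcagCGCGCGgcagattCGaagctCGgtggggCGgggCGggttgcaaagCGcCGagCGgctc
The submitters' processing notes name mm39, so the sites were placed by their spacing alone and no coordinate was carried from one build to the other. The windows of these 4 genes hold 21, 16, 24, and 34 CpG sites, of which 6, 12, 17, and 12 were measured. The methylation level of single measured sites, averaged over the 6 samples, was 1.38% to 2.38% in *Sycp1*, 1.0% to 8.81% in *Mei4*, 1.06% to 3.94% in *Psmc3ip*, and 1.05% to 4.81% in *Trip13*.

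RefSeq windows were found for 29 of the 34 genes. They held a median of 18 CpG sites, against 7 in the windows of all 27025 genes. The E-box CACGTG, which is read the same on both strands, was present in 6 of the 29 genes (20.7%), against 8.09% of all genes. The E2F-type motif TCCCGC, searched on both strands, was present in 18 (62.1%), against 22.1% of all genes. Both motifs stood together in 6 (20.7%), against 2.32%, and *Sycp1* is an example. These shares describe the letters of the windows only, and the promoters were not matched to other genes of similar CpG content.

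Over the whole table, the reads summed over CpG sites were 28535973 to 33743845 per sample, and no sample stood apart in depth. At the sites of the meiotic genes, the median coverage was 24 to 31 reads per sample. The promoters of 6 germ cell genes that are methylated in most somatic cells (*Dazl*, *Ddx4*, *Mael*, *Sycp3*, *Tdrd1*, and *Tuba3a*) had levels of 0.740% to 3.23% averaged over the 6 samples. All 5 spermatogonial marker promoters with 3 or more sites (*Etv5*, *Gfra1*, *Id4*, *Ret*, and *Zbtb16*) were at 1.38% to 2.38%. Within 5 kb, levels were higher, at 0.740% to 30.8% in the 6 germ cell genes (median 5.41%) and 1.65% to 5.59% in the 5 spermatogonial genes. Among the 5 fibroblast markers, 1 promoter had enough sites (*Pdgfrb*, 3.02%), and 2 genes did within 5 kb, *Pdgfrb* at 46.7% and *Thy1*, which spermatogonial stem cells also express, at 54.2%. The 5 kb level of *Thy1* was 48.8% ± 0.385 in the Space samples and 59.6% ± 4.03 in the Ground samples (SD, n = 3), without overlap (unadjusted p = 0.0477, adjusted p = 0.969, quasi-binomial test with limma moderation), while that of *Pdgfrb* overlapped. A share of feeder cells was not measured, and its part in the results was not tested.

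A CpG site was used if it had at least 10 reads in all 6 samples. Within 5 kb of a TSS, 462 sites of 29 genes passed, and within 1 kb, here called the promoter, 414 sites of 25 genes. The promoter level of a gene is the percent of methylated reads summed over its sites. At least 3 sites were required for a test, which left 24 promoters, and *Rnf212* had 2 sites. *Syce3*, *Tex12*, *Rad21l*, *Rec8*, *Spo11*, *Rec114*, *Iho1*, *Msh5*, and *Terb2* had no promoter site that passed.

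Meiotic promoters were almost free of DNA methylation in Space and Ground GS cells. The median promoter level over the 24 genes was 2.03%, and over all 14373 genes with 3 or more promoter sites it was 1.82%. Levels were under 5% in 22 of the 24 genes (91.7%) and in 93.5% of all genes. The exceptions were *Sycp2* and *Spata22*, at the 95.7th and 96.1st percentiles of all promoters. At the other end, the cohesin genes *Smc1b* and *Stag3* were at 0.549% and 0.657%. Averaged over the 25 promoters, the level was 2.64%, 2.79%, and 2.79% in the 3 Space samples and 3.67%, 2.67%, and 2.93% in the 3 Ground samples. The means were 2.74% ± 0.0863 in the Space samples and 3.09% ± 0.517 in the Ground samples (SD, n = 3), and the groups overlapped.

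**Figure D1:**
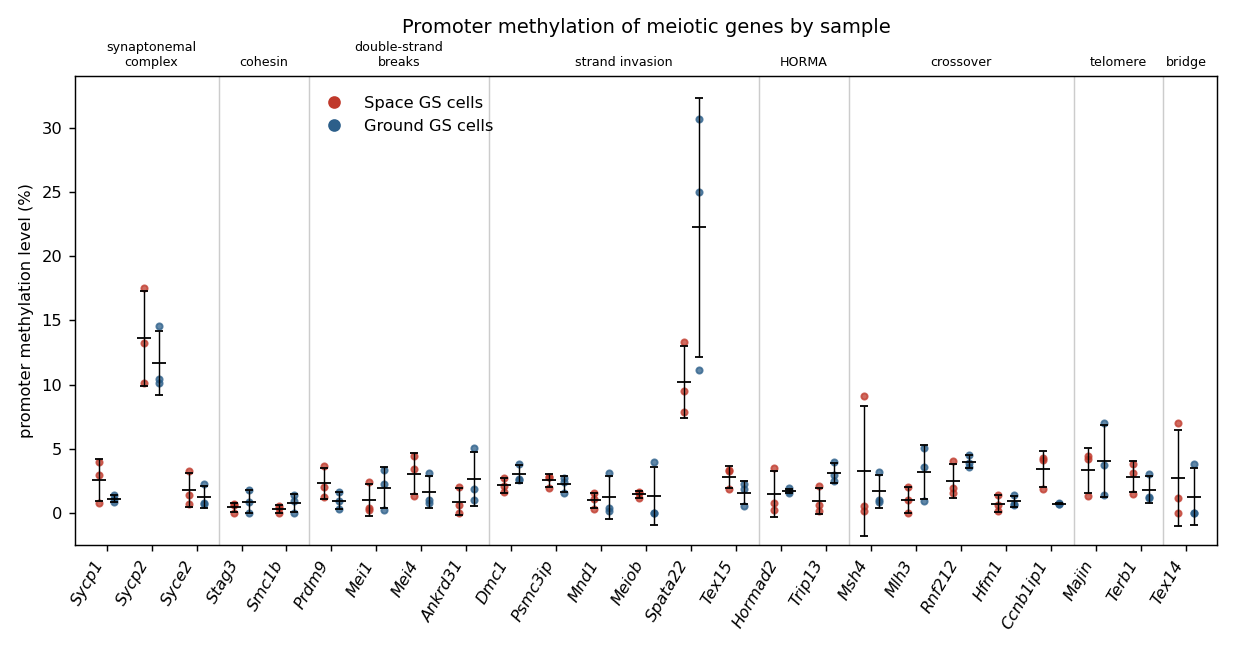
Promoter methylation level in percent (y axis) of the 25 meiotic genes with a promoter site covered by at least 10 reads in all 6 samples, in order of their role (x axis). Points are samples (red, Space GS cells; blue, Ground GS cells), and black bars show the mean and SD of 3 samples. Only *Sycp2* and *Spata22* averaged 5% or more over the 6 samples.

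Of the 24 promoters, 12 had a higher and 12 a lower level in the Space samples, and the median absolute difference was 1.12 percentage points. Over all genes it was 0.598 points. The meiotic promoters also had fewer reads, with a median of 404 in the sample with the fewest reads, against 594 over all genes, and the part of this depth in the difference was not tested. With the quasi-binomial test over all genes, no promoter passed the Benjamini-Hochberg adjusted threshold of 0.05 (0 of 14361, percent called 0). The smallest adjusted p among the meiotic genes was 0.962. Without adjustment, 2 of 24 had a p under 0.05, *Trip13* (lower in Space GS cells) and *Ccnb1ip1* (higher), while 4.71% of all promoters had one (2.93% with a higher and 1.78% with a lower level in the Space samples). With edgeR and limma the same 2 genes had an unadjusted p under 0.05, and again 0 promoters passed the adjusted threshold. Space and Ground samples did not overlap in these 2 of 24 genes, and in 9.55% of all promoters.

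**Figure D2:**
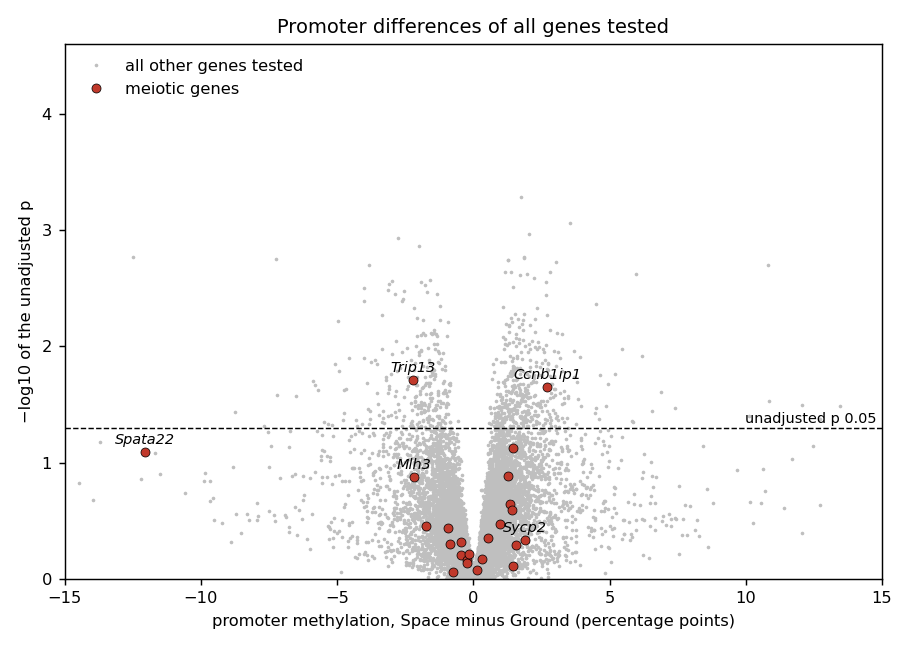
Difference in promoter methylation between Space and Ground GS cells in percentage points (x axis) and −log10 of the unadjusted p of the quasi-binomial test (y axis). Red circles are the 24 meiotic genes and grey points are all other genes tested, of which 10 lie outside the axes. The dashed line marks an unadjusted p of 0.05, above which *Trip13* and *Ccnb1ip1* lie.

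The synaptonemal complex holds homologous chromosomes together along their length. Its 5 genes here are *Sycp1* (the transverse filament that bridges the axes), *Sycp2* (a component of the axes), and *Syce2*, *Syce3*, and *Tex12* (central element proteins). *Sycp2* (chromosome 2, TSS at 178049478 in mm39) had the most methylated promoter of them. Its promoter levels were 13.2%, 17.5%, and 10.1% in the Space samples and 10.1%, 14.6%, and 10.4% in the Ground samples. The groups overlapped, with means of 13.6% ± 3.70 and 11.7% ± 2.49 (SD, n = 3; unadjusted p = 0.467 and adjusted p = 0.983 in the quasi-binomial test with limma moderation).

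The level of *Sycp2* came from 3 sites 676 to 667 bp upstream of the TSS. Their summed levels were 57.9%, 48.3%, and 37.2% in the Space samples and 41.6%, 47.6%, and 49.6% in the Ground samples. The other 25 sites, 47 to 346 bp downstream, were at 0% to 5.28% in each sample, with 11 to 21 reads per site. Thus, the same promoter held intermediate methylation upstream and very little at its start in both groups. The 5.28% was that of Space 2, where the median of methylated reads per site was 1 of 13 over the last 14 sites.

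*Syce2* had the most reads of this role. It was at 1.78% ± 1.30 in the Space samples and 1.24% ± 0.870 in the Ground samples over 46 sites (SD, n = 3). *Sycp1* was at 2.58% ± 1.64 and 1.11% ± 0.276. Its groups overlapped (unadjusted p = 0.0743, adjusted p = 0.962, quasi-binomial test with limma moderation), and the exact permutation test gave p = 0.4. Its unadjusted p was under 0.05 within 500 bp, with at least 20 reads per site, and without Space 3. The level was higher in the Space samples in each of these settings. Of all promoters, 4.78%, 4.84%, and 5.22% had an unadjusted p under 0.05 in them. In the last 2 settings, *Ccnb1ip1* did not have one. *Syce3* (chromosome 15, TSS at 89294706) was measured in all samples at 2 sites, 4316 and 4290 bp upstream. The level there was 97.5%, 100%, and 96.2% in the Space samples and 95.8%, 95%, and 93.8% in the Ground samples, with 20 to 40 reads per sample summed over both sites. All 3 Space samples were above the Ground samples, by 3.02 points in the means, and 2 sites were too few for the test over genes. Methylated reads were 39 of 40, 22 of 22, and 25 of 26 in the Space samples. They were 23 of 24, 19 of 20, and 30 of 32 in the Ground samples, so single reads set the order. Of all 16603 genes with 3 or more sites within 5 kb, 1591 did not overlap between the groups. Without the coverage minimum, the promoter of *Syce3* had 1 methylated of 633 reads. *Tex12* then had 9 of 357 reads, from 3 samples.

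Meiotic cohesins hold sister chromatids and form the base of the chromosome axes. *Stag3* and *Smc1b* had promoter sites, and *Rad21l* and *Rec8*, which encode kleisin subunits, had none with enough reads. *Smc1b* was at 0.316% ± 0.289 in the Space samples and 0.783% ± 0.728 in the Ground samples (SD, n = 3). *Stag3* was at 0.438% ± 0.385 and 0.875% ± 0.893. The table assigned 11 sites within 1 kb of the *Stag3* TSS to *Gpc2* and 7 sites near *Smc1b* to *Ribc2*, since those start sites are closer. With these sites added, the differences were −1.81 points for *Stag3* and −0.760 points for *Smc1b*. *Stag3* was then at 0.773% ± 0.548 in the Space samples and 2.58% ± 1.49 in the Ground samples. The groups overlapped in both genes, and these sums were not tested. Without the coverage minimum, *Rad21l* had 69 methylated of 1278 reads within 5 kb (5.40%, 95% exact binomial interval 4.22% to 6.78%, which covers counting error only). Single samples ranged from 2.10% to 16.25%, on 80 to 286 reads. *Rec8* had 0 of 88 promoter reads, all from Space samples, which allows a level of up to 3.41%. This limit is 3 reads of the total, here and for the other levels of 0.

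The 7 genes of double-strand break formation include *Prdm9*, whose product marks the sites of breaks by histone methylation, *Spo11*, which cuts the DNA, and *Mei1*, *Mei4*, *Rec114*, *Iho1*, and *Ankrd31*, which are needed for the activity of SPO11 or its timing. The promoters of *Prdm9*, *Mei1*, *Mei4*, and *Ankrd31* were at 1.49% to 2.35% averaged over all samples. *Mei4* had the most reads, and its level was 3.06% ± 1.59 in the Space samples and 1.65% ± 1.26 in the Ground samples (SD, n = 3). Within the sequence printed for *Mei4*, the 4 sites between 68 and 26 bp upstream of the TSS were the highest, each at 11.8% in the mean of the Space samples and at 2.38% to 5.83% in the mean of the Ground samples. These 4 sites had 11 to 29 reads per sample, and at most 4 were methylated in the median over them. Summed over the 4 sites, the levels were 6.25%, 20%, and 9.09% in the Space samples and 0%, 4.72%, and 6.90% in the Ground samples. The groups overlapped, and the coverage was nearly the same from site to site, so the 4 sites are not separate observations.

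*Prdm9* (chromosome 17, TSS at 15784616) had an unmethylated promoter and a methylated site upstream. Over 17 promoter sites, its levels were 1.25%, 3.66%, and 2.04% in the Space samples and 1.65%, 0.923%, and 0.321% in the Ground samples, which overlapped (unadjusted p = 0.227, adjusted p = 0.964, quasi-binomial test with limma moderation). The site 2118 bp upstream was at 77.6%, 86.1%, and 84.1% in the Space samples and at 75.6%, 81.4%, and 92.6% in the Ground samples, with 36 to 68 reads. Within 5 kb, both kinds of sites together gave 12.0% ± 1.56 and 13.0% ± 4.05 (SD, n = 3).

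*Spo11* (chromosome 2, TSS at 172819493) was measured at 15 sites 2312 to 2507 bp downstream of the TSS. Their summed level was 17.2%, 13.4%, and 16.5% in the Space samples and 18%, 12.3%, and 8.23% in the Ground samples. The lowest value was that of Ground 3, and the groups overlapped, with means of 15.7% ± 1.99 and 12.8% ± 4.91 (SD, n = 3; unadjusted p = 0.239, adjusted p = 0.977, quasi-binomial test with limma moderation). The difference of 2.88 points was 5.47 without Ground 1, with an unadjusted p of 0.0428 in the quasi-binomial model, and 0.585 without Ground 3. Single sites ranged from 1.60% to 53.5% averaged over all samples. The highest was the last, 2507 bp downstream, at 76.0%, 61.1%, and 50% in the Space samples and 57.9%, 61.9%, and 14.3% in the Ground samples, with 14 to 25 reads. The means differed by 17.7 points there, and the groups overlapped. Without the coverage minimum, the *Spo11* promoter had 37 methylated of 110 reads (33.6%, 95% exact binomial interval 24.9% to 43.3%). It had 6 to 36 promoter reads per sample. Of the 4 promoters with any read below the minimum (*Syce3*, *Tex12*, *Rec8*, and *Spo11*), it was the only one with more than 5% of the reads methylated.

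*Rec114* (chromosome 9, TSS at 58651247) was measured at 2 sites, 3935 and 3805 bp upstream. Its levels were 97.4%, 100%, and 100% in the Space samples and 100%, 96.7%, and 98.5% in the Ground samples. *Iho1* (chromosome 9, TSS at 108305683) was measured at 2 sites, 3711 and 3639 bp upstream. Its levels were 2.50%, 6.98%, and 5.77% in the Space samples and 4.65%, 8.16%, and 2.86% in the Ground samples. The groups overlapped in both genes, and at these 2 sites each *Rec114* was near full methylation and *Iho1* near none. Without the coverage minimum, *Rec114* had 409 methylated of 859 reads over 21 sites within 5 kb (47.6%, and 37.9% to 76.5% in single samples). *Iho1* then had 16 of 764 reads (2.09%).

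The 6 genes of strand invasion all had promoter sites. *Dmc1* encodes the meiotic recombinase, *Psmc3ip* and *Mnd1* encode partners that stimulate it, *Meiob* and *Spata22* encode proteins that bind single-stranded DNA together, and *Tex15* is needed for the repair of the breaks. *Mnd1* had the most reads, and its level was 0.985% ± 0.603 in the Space samples and 1.22% ± 1.65 in the Ground samples (SD, n = 3). *Psmc3ip*, *Meiob*, and *Tex15* averaged 2.40%, 1.39%, and 2.20% over all samples. *Tex15* also had 3 sites just outside the promoter, with 0 methylated reads in all samples, which allows levels of up to 4.76% to 7.69% at 39 to 63 reads.

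*Dmc1* (chromosome 15, TSS at 79489310) showed the same contrast as *Prdm9*. Over 7 promoter sites, 25 to 66 bp downstream, its levels were 2.76%, 2.14%, and 1.61% in the Space samples and 3.82%, 2.67%, and 2.60% in the Ground samples. The ranges overlapped (unadjusted p = 0.498, adjusted p = 0.984, quasi-binomial test with limma moderation). The site 3366 bp upstream was at 100%, 96.2%, and 97.8% in the Space samples and 90.4%, 97.1%, and 97.6% in the Ground samples. Within 5 kb, the sums were 12.0% ± 1.93 and 12.7% ± 2.37 (SD, n = 3).

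*Spata22* (chromosome 11, TSS at 73220567) had the highest promoter level and the largest difference of the 25 promoters. Over 6 sites, 384 to 460 bp downstream, its levels were 7.84%, 9.52%, and 13.3% in the Space samples and 30.7%, 11.1%, and 25% in the Ground samples. Space 3 was above Ground 2, so the groups overlapped, with means of 10.2% ± 2.81 and 22.3% ± 10.1 (SD, n = 3). The difference of −12.0 points was at the 99.9th percentile of all promoters in size, but it did not pass the test (unadjusted p = 0.0809, adjusted p = 0.962, quasi-binomial test with limma moderation). All 6 sites shared the coverage of 10 to 21 reads in each sample, so a sample was measured by few reads that span all sites. The difference was −7.82 points without Ground 1 and −17.6 points without Ground 2, where the unadjusted p in the quasi-binomial model was 0.0154.

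The last *Spata22* site, at position 73221027 of chromosome 11 in mm39, was the only 1 of the 462 sites with a difference of over 20 points. Its levels were 5.88%, 7.14%, and 10% in the Space samples and 26.3%, 19.0%, and 50% in the Ground samples, on 10 to 21 reads. The groups did not overlap, and the means differed by −24.1 points. Over all 472734 sites within 5 kb of a TSS, 0.0539% differed by more than 20 points and 4.5% did not overlap. No single site was tested.

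*Hormad2* encodes an axis protein of the HORMA domain family, and *Trip13* encodes the ATPase that removes such proteins from synapsed axes. *Hormad2* was at 1.5% ± 1.77 in the Space samples and 1.73% ± 0.178 in the Ground samples (SD, n = 3). *Trip13* (chromosome 13, TSS at 74085903) had levels of 0.134%, 2.09%, and 0.618% in the Space samples and 3.99%, 2.48%, and 2.98% in the Ground samples over 21 sites. All 3 Space samples were below the Ground samples, with means of 0.948% ± 1.02 and 3.15% ± 0.768 (SD, n = 3). The difference of −2.20 points had an unadjusted p of 0.0197 in the limma-moderated quasi-binomial test, and 0.962 after adjustment. The exact permutation test (two-sided) gave p = 0.1, the smallest it allows with 3 against 3 samples.

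The reads behind *Trip13* were few. Over the first 15 sites, 1 bp upstream to 73 bp downstream, the coverage was nearly the same from site to site, and the median of methylated reads per site was 1 in each Ground sample, of 29, 35, and 38 reads. It was 0 in each Space sample, of 32, 21, and 36 reads. These sites include the 12 in capitals in the *Trip13* sequence, and neighboring sites are often read on the same molecule. Over the next 6 sites, the median was 0, 2, and 0 in the Space samples and 2, 0, and 1 in the Ground samples, so there the groups overlapped. The table assigned 6 further sites within 1 kb to *Brd9*, whose start site is closer. With these sites, the difference was −1.66 points. The unadjusted p of *Trip13* in the quasi-binomial model was 0.0799 without Space 1 and 0.0674 without Space 3.

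The 6 crossover genes are *Msh4* and *Msh5* (the MutSγ complex), *Mlh3* (which acts in the resolution of crossovers), *Hfm1* (a helicase), and *Rnf212* and *Ccnb1ip1* (ligases that regulate the number of crossover sites). *Hfm1* had the most reads, and its level was 0.740% ± 0.652 in the Space samples and 0.911% ± 0.441 in the Ground samples (SD, n = 3). *Rnf212* averaged 3.26% over 2 sites. *Msh5* was read at 3 sites within 5 kb without the coverage minimum, with 94 methylated of 105 reads, none of them in the promoter.

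*Ccnb1ip1* (chromosome 14, TSS at 51045189) had an unadjusted p under 0.05 and a higher level in Space GS cells. Over 15 sites, its levels were 1.84%, 4.31%, and 4.12% in the Space samples and 0.690%, 0.726%, and 0.759% in the Ground samples. The groups did not overlap, with means of 3.42% ± 1.37 and 0.725% ± 0.0349 (SD, n = 3). The difference of 2.70 points had an unadjusted p of 0.0224 in the limma-moderated quasi-binomial test, 0.962 after adjustment, and an exact permutation p of 0.1. The median of methylated reads per site was 0 or 1 in each sample over the first 13 sites, which had 19 to 34 reads. Within single runs of neighboring sites with nearly the same coverage, the groups overlapped. Space 3 was at 0% over the first 7 sites, Space 1 over the next 6, and Space 2 over the last 2. With 5 sites that the table assigned to *Parp2*, the difference was 2.96 points. The unadjusted p of *Ccnb1ip1* in the quasi-binomial model rose to 0.0545 without Space 2, 0.0522 without Space 3, and 0.0548 to 0.0591 without Ground 1, Ground 2, or Ground 3.

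*Msh4* (chromosome 3, TSS at 153611775) was high in 1 sample. Its promoter levels were 9.14%, 0.559%, and 0.142% in the Space samples and 1.04%, 3.18%, and 0.893% in the Ground samples over 31 sites. Space 1 was above all others, and the means were 3.28% ± 5.08 and 1.70% ± 1.28 (SD, n = 3; unadjusted p = 0.508, adjusted p = 0.984, quasi-binomial test with limma moderation). In Space 1, the median of methylated reads per site was 1 of 10 over the first 16 sites and 2 of 24 over the next 13 sites. The count repeated from site to site. Without Space 1, the difference was −1.35 points in place of 1.58. Further into the gene, at 5 sites 2657 to 2906 bp downstream, *Msh4* was at 96.7%, 95.3%, and 94.4% in the Space samples and 99.2%, 93.2%, and 94.6% in the Ground samples. The 5 kb sums were 19.3% ± 8.02 and 19.1% ± 2.73.

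*Mlh3* (chromosome 12, TSS at 85317373) had promoter levels of 0%, 2.02%, and 1.06% in the Space samples and 0.938%, 5.04%, and 3.63% in the Ground samples over 8 sites. The 0% of Space 1 allows up to 0.943% on 318 reads, and the groups overlapped. The means were 1.02% ± 1.0 and 3.20% ± 2.08 (SD, n = 3; unadjusted p = 0.134, adjusted p = 0.962, quasi-binomial test with limma moderation). The difference of −2.18 points was −3.31 without Ground 1, with an unadjusted p of 0.0425 in the quasi-binomial model, and −1.26 without Ground 2, with 0.374. Its 6 sites 1373 to 2600 bp downstream were at 95.7%, 98.9%, and 97.5% in the Space samples and 95.1%, 99.1%, and 95.6% in the Ground samples. The 5 kb sums were 24% ± 3.70 and 26.7% ± 5.91, a difference of −2.67 points (unadjusted p = 0.466, adjusted p = 0.993 in the same model). This difference was −5.92 points without Ground 1, −0.144 points without Ground 2, and −0.510 points as a mean over sites.

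**Figure D3:**
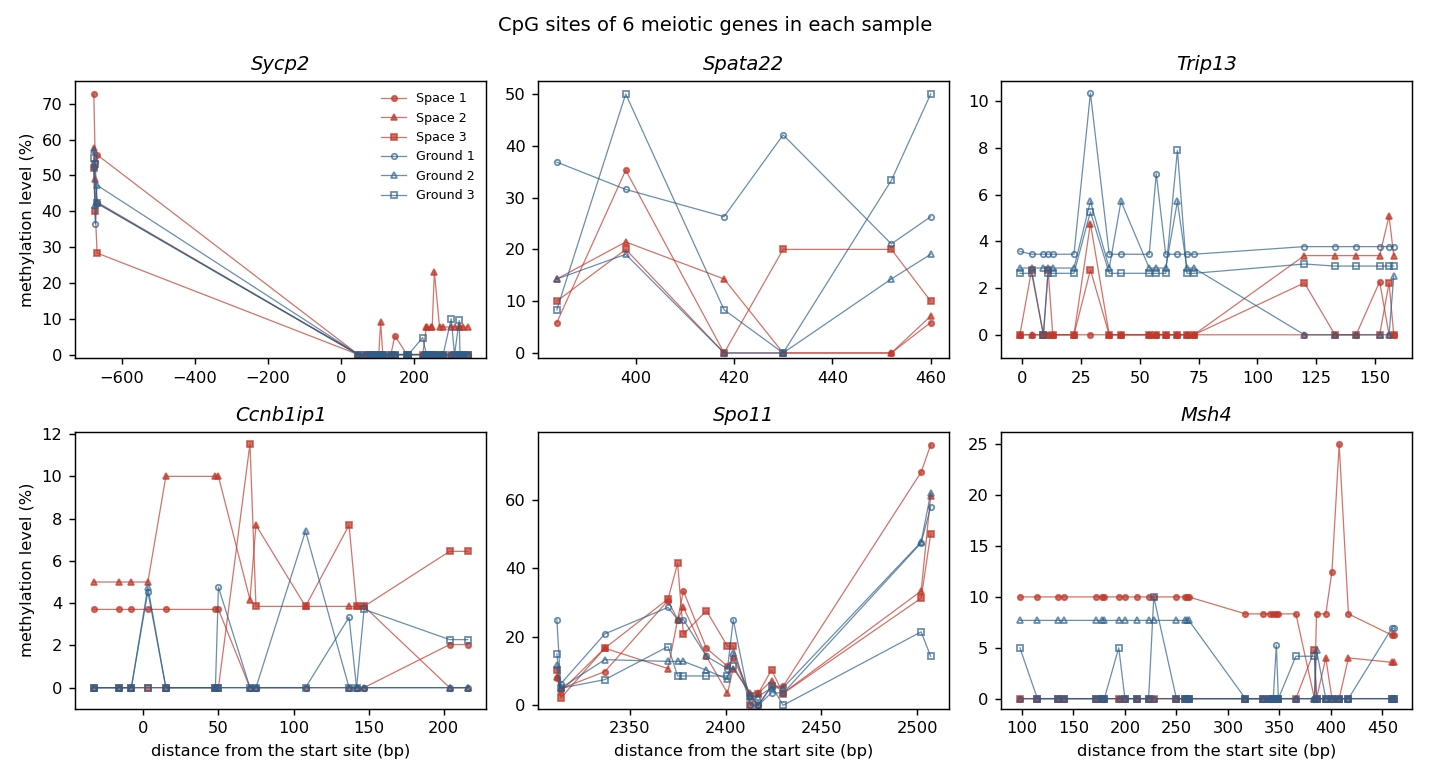
Methylation level in percent (y axis) of each promoter CpG site of 5 meiotic genes, and of the 15 *Spo11* sites 2312 to 2507 bp downstream, by its distance from the TSS in bp (x axis), for each of the 3 Space (red, filled) and 3 Ground samples (blue, open). The y axes differ between genes and reach from 10.3% in *Trip13* to 76.0% in *Spo11* at the highest site of a sample. Levels of *Msh4* in Space 1 repeat from site to site, as 1 methylated read of 10 recurs.

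Meiotic telomeres are tethered to the nuclear envelope by a complex of TERB1, TERB2, and MAJIN. *Terb1* was at 2.82% ± 1.21 in the Space samples and 1.83% ± 1.04 in the Ground samples over 27 sites (SD, n = 3). *Terb2* had 3 reads within 5 kb, all in 1 sample. *Majin* (chromosome 19, TSS at 6234418) had promoter levels of 4.43%, 1.32%, and 4.23% in the Space samples and 7.02%, 3.75%, and 1.42% in the Ground samples over 3 sites. Its 8 sites 4035 to 3903 bp upstream were at 95.1%, 98.6%, and 96.2% in the Space samples and 99.0%, 95.2%, and 96.3% in the Ground samples. Both windows overlapped between the groups, and the 5 kb sums of 46.0% ± 3.24 and 44.7% ± 11.5 did not pass the test (unadjusted p = 0.900, adjusted p = 0.9999, quasi-binomial test with limma moderation). *Tex14*, which is required for the bridges between germ cells, was at 2.74% ± 3.76 and 1.28% ± 2.22 over 3 sites.

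Outside of the promoter, methylation was high at most measured sites. Of the 48 sites between 1 and 5 kb from the TSS, 26 were over 80%, 12 were at 5% to 80%, and 10 were under 5%. Their median was 93.0%, and that of all 82166 sites at this distance was 2.33%. The 48 sites came from 12 genes, and neighboring sites share reads. Of the 414 promoter sites, 399 were under 5% and 0 were over 80%. Of the 12 sites at 5% to 80%, 11 were those of *Spo11* and 1 was that of *Iho1*. Averaged over the 12 genes, the level between 1 and 5 kb was 65.6% ± 1.02 in the Space samples and 64.9% ± 0.0833 in the Ground samples (SD, n = 3).

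**Figure D4:**
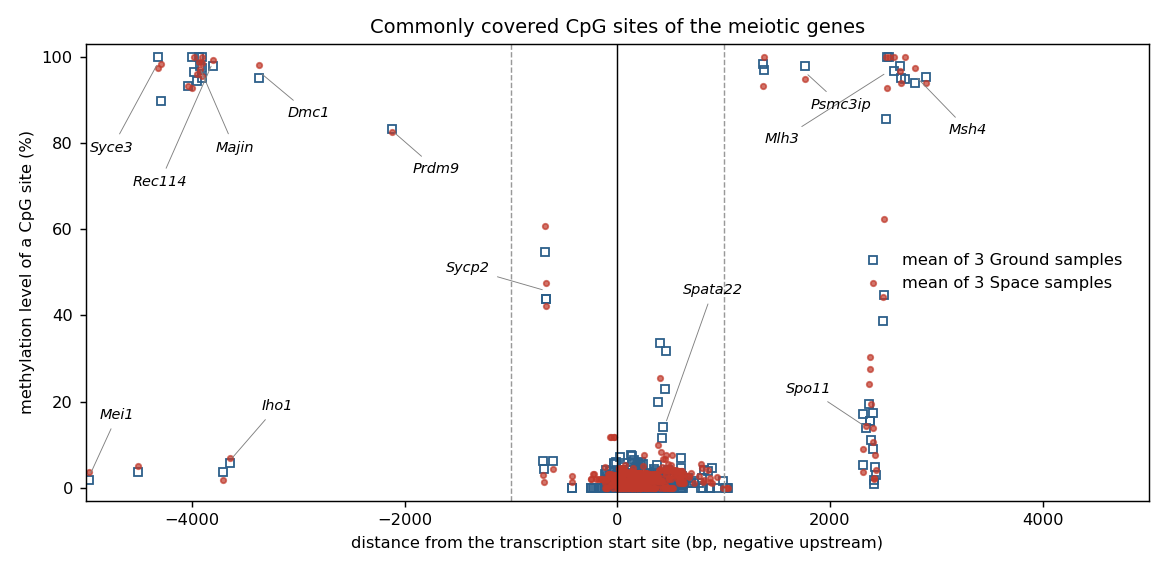
Methylation level in percent (y axis) of the 462 CpG sites of the meiotic genes by their distance from the TSS in bp (x axis), as the mean of 3 Space (red circles) and 3 Ground samples (blue squares). Dashed lines mark 1 kb. Of the 414 sites within 1 kb, 399 averaged under 5% over all samples, and the others belong to *Sycp2*, *Spata22*, *Mei4*, *Psmc3ip*, and *Majin*. Of the 48 sites beyond 1 kb, 26 were over 80%.

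The 5 kb sums included 25 genes with 3 or more sites. Of these, 13 had a higher and 12 a lower level in the Space samples, 0 passed the adjusted threshold, and 2 had an unadjusted p under 0.05 (*Trip13* and *Ccnb1ip1*, with the same sites as in the promoter), while 4.77% of all 16593 genes had one. Averaged over 29 genes, the 5 kb level was 13.5% ± 0.255 in the Space samples and 13.6% ± 0.803 in the Ground samples (SD, n = 3). Of the 462 sites, 426 (92.2%) differed by 5 points or less between the group means, against 95.2% of all sites within 5 kb.

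Other genes of meiosis were compared with them. Of 51 further genes listed, such as *Sycp3*, *Hormad1*, and *Stra8*, 48 were found in the table and 33 had 3 or more promoter sites. Their median promoter level was 1.71%, 32 of 33 were under 5%, and 0 were at 10% or more. Their median absolute difference was 0.488 points, and 0 passed the adjusted threshold. *Brca1*, which acts in the repair of double-strand breaks, was the only 1 of 33 with an unadjusted p under 0.05, against 4.71% of all promoters. Its promoter levels were 0.209%, 1.13%, and 0.501% in the Space samples and 12.1%, 1.26%, and 3.70% in the Ground samples over 17 sites. The groups did not overlap and differed by −5.07 points (unadjusted p = 0.0143, adjusted p = 0.962, quasi-binomial test with limma moderation), and Ground 1 was far above the other samples. Of the 33 promoters, 2 did not overlap between the groups, against 9.55% of all promoters. The other was *Sycp3*, lower in the Space samples (unadjusted p = 0.153 in the same test). Of 28 listed spermatid and sperm genes, 6 had 3 or more promoter sites, with a median of 1.84%, and 5 of these were under 5%. Among these 6, *Dnajb3* (higher in the Space samples) and *Tssk6* (lower) had an unadjusted p under 0.05, against the 4.71% of all promoters, and 0 passed the adjusted threshold. Promoters with 1 or 2 sites were left out of these counts, and most of them were methylated. *Catsper1*, *Tssk1*, *Tssk2*, *Izumo1*, and *Gapdhs* were at 97.7%, 96.1%, 93.2%, 91.2%, and 27.1% averaged over the 6 samples, and *Zpbp* was at 1.85%.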

How the data were processed

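DNA methylation was measured by RRBS in 3 Space and 3 Ground samples of GS cells. The authors deposited a table of all samples with, per CpG site and sample, the read coverage as a count and the methylated reads as a percent, beside the closest TSS. The submitters' processing notes name Trim Galore, Bismark 0.24.2, methylKit, and mm39, without their roles. Removal of duplicated reads is not given in the sources used here, and bisulfite reads without molecular identifiers may be copies of 1 molecule, so intervals and limits cover counting error only. No rate of bisulfite conversion was used here, and its part in levels of a few percent was not tested. A site is assigned to its closest TSS alone, so sites between neighboring genes can be assigned to the other gene.

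The number of methylated reads was computed from coverage and percent (at most 0.000266 from a whole read). Reads were summed per gene over sites within 1000 or 5000 bp with at least 10 reads in all 6 samples. Genes with 3 or more sites were tested with a quasi-binomial test (two-sided) whose dispersion was moderated with limma 3.58.1 in R 4.3.3, over the whole table, with p-values adjusted by Benjamini and Hochberg (threshold 0.05). It was tested on simulated data. Single genes were also compared with exact permutation tests (two-sided, smallest p 0.1). Alternatives were coverage minimums of 5 and 20 reads, windows of 500 and 2000 bp, 1 site per gene, pooled reads, means over sites, edgeR 4.0.16, limma on log2 ratios with 2 reads added, a replicate block, and each sample left out. The following were added after seeing the data, namely no coverage minimum, sites taken by position, and counts of methylated reads over neighboring sites no more than 100 bp apart whose coverage differed by at most 2 reads in each sample.

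The 34 genes and all gene lists were chosen with earlier results of these data known. Values per sample are given for genes with a promoter or 5 kb level of at least 5%, the 5 largest differences in each window, and genes with an unadjusted p under 0.05. *Stag3* is described with the sites of its neighbor as an addition made after its values were seen, as are the 4 *Mei4* sites and the single sites of *Spata22* and *Spo11*. Promoter sequences are from RefSeq (GRCm38.p6), matched by gene name for 29 of 34 genes, and at least 4 measured sites had to fall on CpG at 1 common shift for a placement, which 8 genes reached. Exons and introns of mm39 were not used here. The scripts ran in Python 3.11.15 and in R with version 1.17.8 of data.table, and figures were drawn with matplotlib 3.10.9.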

Additional observations from a re-analysis of the deposited data

How the results depend on the processing

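No promoter and no 5 kb sum passed the adjusted threshold in any of the 14 alternatives for promoters and 12 for 5 kb sums, edgeR and limma included. Without adjustment, 572 to 1052 promoters had a p under 0.05. The labels do not say whether samples with the same replicate number form pairs, and the library names of such samples carry consecutive numbers. Samples with the same number correlated at 0.0790, 0.0291, and 0.00719 in their deviations from the group means, against −0.0192 on average for other numbers. Deviations from a group mean cancel within each group, so the value for other numbers follows from those for the same number. That value is therefore no separate reference, and whether the samples are paired was not tested. With the replicate number as a block, 0 promoters and 0 5 kb sums were called, and 1052 and 1117 had an unadjusted p under 0.05, in place of 677 and 791. Among the promoters of the meiotic genes these were *Ccnb1ip1*, *Mlh3*, and *Sycp1*, and the paired difference of the mean promoter level was −0.346 points.

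The mean promoter level over the meiotic genes, −0.346 points, was −0.769 with a minimum of 5 reads, 0.110 with 20 reads, 0.120 with reads pooled over genes, and −0.557 to −0.0575 with 1 sample left out. The cause was not tested. The mean 5 kb level, −0.128 points, ranged from −0.439 to 0.325 with 1 sample left out. Sites that differed by more than 20 points and were lower in Space GS cells were 1, 2 with 5 reads, and 0 with 20 reads, where 223 sites were left. With 1 sample left out, they were 0 to 2, and those higher in Space GS cells 0 to 2. The *Ccnb1ip1* promoter had an unadjusted p of 0.0957 with 20 reads, 0.0180 with edgeR, and 0.00783 with limma.

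The 5 kb differences that changed sign were 1.38 points for *Prdm9* as a mean over sites, −3.44 for *Msh4* and −0.734 for *Majin* with 20 reads, and −0.279 for *Majin* as a mean over sites. With 1 sample left out, the difference crossed 0 for *Sycp2* (−0.0346 to 3.65), *Msh4* (promoter −1.35 to 3.15, 5 kb −4.40 to 2.66, −1.34 without Ground 3), *Majin* (promoter −2.06 to 0.745, 0.272 without Space 2, 5 kb −4.26 to 7.22), *Prdm9* (5 kb −3.08 to 0.963), and *Dmc1* (5 kb −1.64 to 0.647, 0.339 without Space 1). With groups of 3 samples and 10 to 97 reads per site, small differences at single sites could not be detected.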
